A study of Homo sapiens with 6 samples.

Results

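The axon guidance ligands and receptors examined here were the protein-coding genes whose symbols belong to the class 3 to 7 semaphorins, the neuropilins and plexins, the SLITs and ROBOs, the netrins with their receptors DCC and UNC5, and the ephrins with their EPH receptors. Membership rested on the gene symbol and the rule used no measured value, but the members were chosen with earlier results of these data known. The rule gave 70 genes among the 60676 gene rows of the tables. Of these 70 genes, 40 reached a mean of 1 FPKM (fragments scaled to gene length and to the library total, so that levels of different genes can be compared) in at least 1 group and were tested. The other 30 were below that level, and 8 of them (EPHA1, EPHA3, EPHB6, ROBO4, NTN1, NTN5, UNC5D and the readthrough gene EFNA4-EFNA3) had no count in any library. The exon bases of EFNA4-EFNA3 are 100% shared with EFNA3 and EFNA4, so its lack of counts does not show that it was silent.

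RNA was measured in SK-N-BE, a human neuroblastoma line that takes on neuronal features under retinoic acid. All 6 libraries came from cells differentiated for 1.5 days with 10 μM retinoic acid. They carried either a scrambled control siRNA (si-SCR, 3 libraries) or a pool of siRNAs that targets CyCoNP, a long noncoding RNA (si-CyCoNP, 3 libraries). This is 1 cell line, and no source used here says whether the 3 libraries of a group came from separate cultures, so the p-values measure the spread between these libraries, which may be technical.

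Guidance cues steer growing axons by attracting or repelling the growth cone, the motile tip of the axon. Secreted class 3 semaphorins act through a neuropilin, which binds the ligand, and an A-type plexin, which carries the signal into the cell, whereas most membrane-bound semaphorins bind plexins directly. SLITs repel through ROBO receptors, netrins attract through DCC and repel through UNC5 receptors, and ephrins and EPH receptors signal in both directions where cells touch. In sympathetic neurons and their neural crest precursors, the lineage from which neuroblastoma arises, semaphorin and neuropilin signalling is known to shape migration and axon growth.

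LINC02381, the gene of CyCoNP, dropped from 274, 208 and 315 counts under si-SCR to 20, 30 and 12 under si-CyCoNP, so each library matched its label (log2 fold change -3.78, SE 0.190, edgeR adjusted p = 6.84e-14). Total counts ran from 3762009 to 4799407 per library, and 3 counts, the limit that a count of 0 allows, corresponded to 0.625 to 0.797 CPM (counts scaled to the library total). On the first principal component (51.4% of the variance) the groups were separate, and si-SCR replicate 3 lay at -20.9, nearer to the si-CyCoNP libraries than the other si-SCR libraries at -34.8 and -35.5. All 12 adrenergic neuroblastoma markers were at a mean of at least 1 FPKM, with a summed level of 2864 to 3356 FPKM in si-SCR against 2301 to 2501 FPKM in si-CyCoNP. Of 9 mesenchymal or fibroblast markers 5 reached that level (57.9 to 75.9 FPKM summed in si-SCR and 72.1 to 80.7 in si-CyCoNP, PRRX1 and COL1A2 at 0). The 7 Schwann and glial markers given here summed to 0.129 to 0.695 FPKM in si-SCR and 0.134 to 0.461 in si-CyCoNP, with SOX10, FOXD3 and CDH19 at 0, but they are not the whole list and do not show that glial RNA was absent. Of 6 endothelial and blood markers none reached 1 FPKM. The part of these marker shifts in the results below was not tested, and in bulk RNA fewer cells of a type and less RNA per cell cannot be told apart.

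Guidance genes moved in both directions after CyCoNP knockdown. The receptors NRP1, NRP2 and UNC5A and the ligand NTN3 were called lower, and the ligands EFNB2 and SEMA3E and the receptor EPHA6 were called higher. A gene was called when the edgeR adjusted p was under 0.05 and the log2 fold change was above 1 or below -1. The 7 called genes were 17.5% of the 40 tested, against 5.26% of all 13966 genes tested, with 3 higher (2.28% of all genes) and 4 lower (2.98% of all genes). At any fold, 21 of the 40 (52.5%) passed an adjusted p of 0.05, against 28.4% of all genes. Of these, 13 were lower and 8 higher, where all genes gave 14.2% in each direction. The FPKM values of the groups did not overlap for 24 of the 40 (60.0%, against 40.3% of all genes), with 11 higher (24.2% of all genes) and 13 lower (16.1% of all genes). The median log2 fold change of the 40 was -0.17 and that of all genes was 0.0053, while the median size of the change, without its sign, was 0.48 against 0.31. These counts and medians cover only genes that reached 1 FPKM, and SEMA3E, SEMA3F, SEMA4D, SEMA5B, EPHA2 and EPHA6 reached it only in si-CyCoNP and SEMA3D, ROBO2 and NTN3 only in si-SCR, so they describe the tested genes and do not speak for all 70. Without si-SCR replicate 3, the library nearest to the other group, 4 members were called higher and 6 lower, 17 passed the adjusted p as lower and 9 as higher, and the median was -0.31. Of the runs that left out 1 library, this one gave the most lower members and the lowest median. The shares of all genes in that run are not given, so its counts cannot be set against them.

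**Figure D1:**
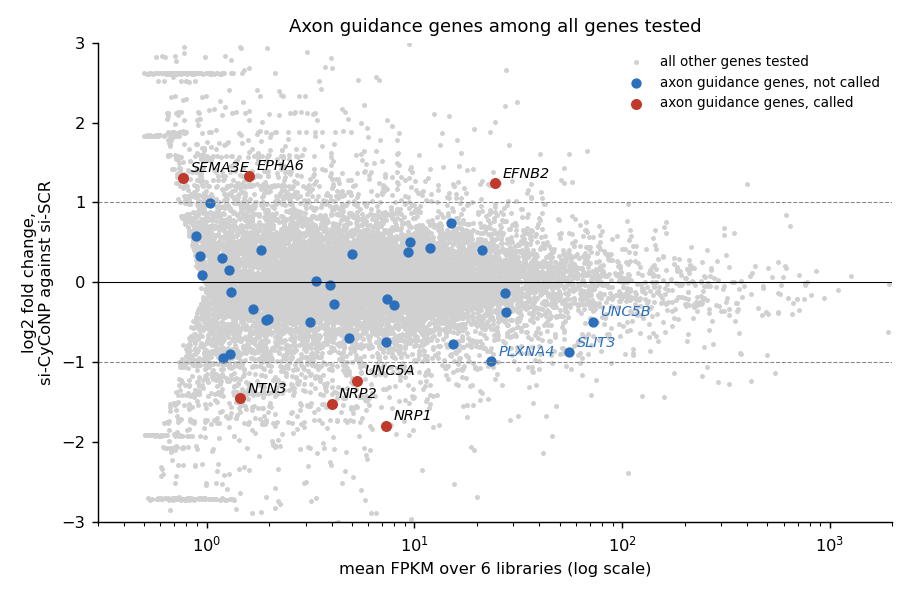
Log2 fold change (si-CyCoNP against si-SCR, vertical axis) against the mean FPKM over all libraries (horizontal log axis) for all genes tested, with the 40 tested guidance genes marked. The 7 called members lie beyond the lines at 1 and -1, and 167 genes with larger changes and 15 genes outside the horizontal range are not drawn.

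The study examined the microRNA miR-4492 together with CyCoNP, so the transcripts of the guidance genes were searched for its seed match. MicroRNAs pair with targets mainly through bases 2 to 8, the seed. The mature sequence (RefSeq, GRCh38.p14) is shown with its seed in capitals, because the 3′UTR windows printed after it were chosen by that seed.
hsa-miR-4492: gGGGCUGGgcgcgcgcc
The letters CCAGCCC, the reverse complement of the seed, were searched on the sense strand of the longest annotated 3′UTR of each gene (GENCODE, GRCh38). They were present in 22 of the 40 tested members (55.0%), against 2629 of 10486 tested protein-coding genes (25.1%). The members had longer 3′UTRs, with a median of 2322 bases against 1585, and higher GC content, at 44.6% against 42.2%. Per kilobase the members held 0.338 matches and all genes 0.182. Among members the match was found in 8 of the 13 that were lower (61.5%), in 2 of the 8 that were higher (25.0%) and in 12 of the 19 that did not pass the test (63.2%). The GC content of the 3′UTRs also differed between these groups, at 46.0%, 37.5% and 49.1% in the same order. The searched letters are mostly C and G, and the part of base composition in these shares was not tested. These shares are a description of letters, without a test, and a match is not a shown binding site.

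PLXNA4 held 5 matches, PLXNA1 4, and SLIT3, UNC5B and PLXNB2 2 each, and single matches were found in NRP1, NRP2 and UNC5A among the lower genes and in PLXNA2 and PLXND1 among the higher genes. The 3′UTRs of SLIT2, ROBO2, SEMA3D, PLXNA3 and NTN3 held none, although these genes were lower, and the NTN3 3′UTR is only 40 bases long. Windows are given below, with the match in capitals, for the lower neuropilins, for SLIT3, UNC5A, PLXNA4 and PLXNA1, and for the 2 higher plexins that also hold a match. For SLIT3, PLXNA4 and PLXNA1, which hold several matches, the window printed is the one where an A follows the match. An A follows 6 of the 40 matches, among them 1 in UNC5A and others in EPHB2 and PLXNB3, which did not pass. The windows of UNC5B, PLXNB2 and the genes that did not pass are not printed, so the choice does not compare the groups.
NRP1, chr10:33179177-33179205, minus strand: cgtgtgagatgCCAGCCCctccgggcagg
NRP2, chr2:205777361-205777389, plus strand: gaaccacctctCCAGCCCtaaagcaaatc
SLIT3, chr5:168663203-168663231, minus strand: cctctccccacCCAGCCCagagcctactc
UNC5A, chr5:176880136-176880164, plus strand: ctgggccaggcCCAGCCCatctgtgtgtg
PLXNA4, chr7:132123992-132124020, minus strand: gcatgtaggggCCAGCCCatctcttccag
PLXNA1, chr3:127035965-127035993, plus strand: agcccctgcccCCAGCCCactgagggggt
PLXNA2, chr1:208024720-208024748, minus strand: tagcatctctaCCAGCCCttaactcaatg
PLXND1, chr3:129555922-129555950, minus strand: agaggaggccgCCAGCCCggaggctgcag

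Among the secreted class 3 semaphorins, SEMA3A and SEMA3E rose and SEMA3D fell, and these 3 genes lie near one another on the minus strand of chromosome 7 (GRCh38). SEMA3A (chr7:83955777-84492724), the classical growth cone collapsing ligand and the most abundant semaphorin here, measured 6.66, 14.8 and 11.2 FPKM in si-SCR against 15.3, 23.9 and 18.0 FPKM in si-CyCoNP. The lowest si-CyCoNP value was just above the highest si-SCR value, and both groups spread widely. The change was 1.68-fold (log2 fold change 0.75, SE 0.165, edgeR adjusted p = 0.000998), but it did not pass with DESeq2 (adjusted p = 0.122) or on log2 FPKM scales.

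SEMA3E (chr7:83363238-83649139), which can signal through plexin D1 without a neuropilin, was low in both groups. It measured 0.220, 0.440 and 0.619 FPKM in si-SCR (8, 14 and 25 counts) against 1.11, 0.975 and 1.28 FPKM in si-CyCoNP (45, 35 and 45 counts). The groups did not overlap and the gene was called higher (2.48-fold, log2 fold change 1.31, SE 0.309, edgeR adjusted p = 0.00187), although limma gave an adjusted p of 0.141 on log2(FPKM + 1) and 0.109 on log2(FPKM + 0.1). SEMA3D (chr7:84995553-85187056) went the other way, from 2.17, 1.45 and 1.06 FPKM to 0.827, 0.846 and 0.868 FPKM (log2 fold change -0.94, SE 0.261, edgeR adjusted p = 0.00724). All 3 si-CyCoNP values of SEMA3D lay close together below the si-SCR values, but the gene did not pass without si-SCR replicate 1 (-0.61, edgeR adjusted p = 0.113) or on the log2 FPKM scales (limma adjusted p = 0.193 and 0.158). SEMA3F, a ligand that prefers NRP2, had a change of 0.58 on the log2 scale and did not pass (edgeR adjusted p = 0.230). The 7 class 3 semaphorins together summed to 14.4 ± 3.76 FPKM in si-SCR against 23.0 ± 4.44 FPKM in si-CyCoNP (SD, n = 3). SEMA3A alone made up 75.5% of this sum in si-SCR and 83.0% in si-CyCoNP, so the sum mainly follows that gene.

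Of the 13 semaphorins of classes 4 to 7, which are membrane-bound or membrane-anchored, 7 were tested and only SEMA5B passed. SEMA5B measured 0.301, 0.655 and 1.06 FPKM in si-SCR against 1.44, 1.35 and 1.44 FPKM in si-CyCoNP, without overlap (log2 fold change 0.99, SE 0.286, edgeR adjusted p = 0.0100). Its size depended on single control libraries, at 0.65 on the log2 scale (edgeR adjusted p = 0.0698) without si-SCR replicate 1 and 1.50 without si-SCR replicate 3. SEMA4C, a plexin B ligand and the most abundant of this set, measured 8.10, 9.0 and 6.21 FPKM in si-SCR against 6.69, 6.72 and 7.62 FPKM in si-CyCoNP, with overlapping groups (log2 fold change -0.21, SE 0.134, edgeR adjusted p = 0.268), but it passed without si-SCR replicate 3 (-0.37, edgeR adjusted p = 0.0165). The other 5 tested genes, SEMA4B, SEMA4D, SEMA4G, SEMA6A and SEMA6D, had log2 fold changes from -0.47 to 0.40, and none passed, although SEMA6D did without si-CyCoNP replicate 2 (0.60). The summed level of the 13 genes was 22.8 ± 1.55 FPKM in si-SCR against 22.1 ± 0.426 FPKM in si-CyCoNP (SD, n = 3).

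Both neuropilins fell. NRP1 (chr10:33177492-33336262, minus strand), the ligand-binding partner for SEMA3A and also a co-receptor for VEGF, measured 16.8, 10.8 and 6.08 FPKM in si-SCR against 3.24, 3.49 and 3.50 FPKM in si-CyCoNP. The 3 si-CyCoNP values were nearly equal, and the 3 si-SCR values differed widely from one another, yet the lowest of them stayed above every si-CyCoNP value. The fall was 3.46-fold (log2 fold change -1.79, SE 0.212, edgeR adjusted p = 2.24e-07), ranging from -1.36 without si-SCR replicate 1 to -2.12 without si-SCR replicate 3. NRP2 (chr2:205681990-205798133, plus strand), the partner preferred by SEMA3F, measured 6.10, 5.87 and 5.61 FPKM in si-SCR against 2.22, 1.71 and 2.48 FPKM in si-CyCoNP. Here the controls were tight as well, and the fall was 2.87-fold (log2 fold change -1.52, SE 0.126, edgeR adjusted p = 5.26e-10). NRP1 and NRP2 were called lower in all 14 alternative analyses. Their summed level went from 17.1 ± 5.61 to 5.55 ± 0.395 FPKM (SD, n = 3), or 32.4% of the si-SCR level.

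**Figure D2:**
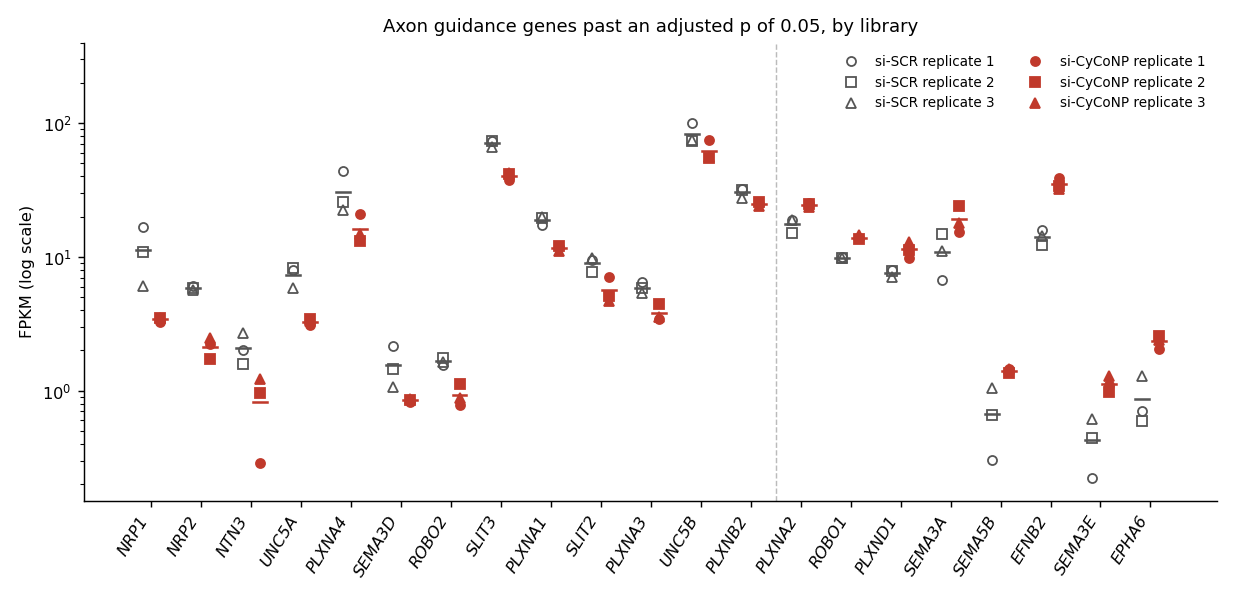
FPKM in every library (log axis) for the 21 guidance genes past an adjusted p of 0.05, with si-SCR libraries as open and si-CyCoNP libraries as filled points and a line at each group mean. The si-CyCoNP points of NRP1 lie between 3.24 and 3.50 FPKM, under all si-SCR points, and those of EFNB2 lie between 32.0 and 39.1 FPKM, above all si-SCR points.

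Of the 9 plexins, the signalling receptors for semaphorins, 8 were tested, 4 fell and 2 rose. The A-type plexins, the usual partners of neuropilins, did not move together. PLXNA1 measured 17.4, 19.6 and 19.8 FPKM in si-SCR against 11.8, 12 and 11.1 FPKM in si-CyCoNP, with tight and separate groups (log2 fold change -0.77, SE 0.085, edgeR adjusted p = 6.85e-08). PLXNA2 measured 18.9, 15.2 and 18.9 FPKM in si-SCR against 25.1, 24.8 and 23.6 FPKM in si-CyCoNP and so rose without overlap (log2 fold change 0.40, SE 0.086, edgeR adjusted p = 0.000727). The ratio of PLXNA1 to PLXNA2 in FPKM, a pair picked after its values were seen, was 1.09 ± 0.185 in si-SCR and 0.475 ± 0.00745 in si-CyCoNP (SD, n = 3), and PLXNA2 was the more abundant of these receptors in every si-CyCoNP library and in 1 si-SCR library.

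PLXNA4, with PLXNB2 one of the most abundant plexins in si-SCR, measured 43.8, 25.7 and 22.5 FPKM there and 20.8, 13.1 and 14.8 FPKM in si-CyCoNP. The values barely separated, with replicate 1 the highest in each group (log2 fold change -0.99, SE 0.166, edgeR adjusted p = 4.44e-05). Without si-SCR replicate 1 the log2 fold change was -0.62, and on log2(FPKM + 1) the limma adjusted p was 0.0728. PLXNA4 did not pass on log2(FPKM + 0.1) either. PLXNA3 fell from 6.44, 5.81 and 5.34 FPKM to 3.42, 4.42 and 3.56 FPKM, also without overlap (log2 fold change -0.70, SE 0.120, edgeR adjusted p = 6.04e-05).

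Among B-type plexins, which bind class 4 semaphorins, PLXNB2 was the most abundant. It measured 32.3, 31.7 and 27.8 FPKM in si-SCR against 24.7, 25.7 and 24.1 FPKM in si-CyCoNP, a modest fall with separate groups (log2 fold change -0.37, SE 0.087, edgeR adjusted p = 0.00187). PLXNB1 had a change of -0.04 on the log2 scale (edgeR adjusted p = 0.868) and PLXNB3 of -0.46 (edgeR adjusted p = 0.103, and -0.63 with a pass without si-SCR replicate 3), and 20.4% of the exon bases of PLXNB3 are shared with SRPK3. PLXND1, the receptor of SEMA3E, rose from 7.96, 7.81 and 7.09 FPKM to 9.84, 11.3 and 13.0 FPKM without overlap (log2 fold change 0.51, SE 0.107, edgeR adjusted p = 0.000572). SEMA3E and PLXND1, a pair picked after its values were seen, were both higher, while both neuropilins were lower. SEMA3E was near the lowest level tested and did not pass on the log2 FPKM scales. Whether signalling through any of these receptors changed was not tested.

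SLIT3 and SLIT2 fell, and their receptors ROBO1 and ROBO2 moved in opposite directions. SLIT3 (chr5:168661740-169301139, minus strand) was among the most abundant members, with 4492, 3936 and 4501 counts in si-SCR against 2554, 2541 and 2517 counts in si-CyCoNP. In FPKM this was 70.9 ± 4.25 and 40.6 ± 2.87 (SD, n = 3), and the libraries of a group were close to one another and far from the other group. Of the si-SCR level 54.6% remained (log2 fold change -0.87, SE 0.081, edgeR adjusted p = 4.05e-09), so this gene was past the adjusted p but short of the fold needed for a call. SLIT2 measured 9.55, 7.66 and 9.88 FPKM in si-SCR against 7.14, 5.10 and 4.66 FPKM in si-CyCoNP, separate by a small gap (log2 fold change -0.74, SE 0.126, edgeR adjusted p = 4.60e-05). SLIT1 had at most 5 counts in any library. SLIT3 made up 88.7% of the summed SLIT level in si-SCR and 87.7% in si-CyCoNP.

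ROBO1 (chr3:78597239-79767998), the main SLIT receptor in these cells by level, measured 10.0, 9.85 and 9.74 FPKM in si-SCR against 13.8, 13.6 and 14.5 FPKM in si-CyCoNP. The libraries of each group lay close together, and the rise was 1.35-fold (log2 fold change 0.43, SE 0.087, edgeR adjusted p = 0.000362). ROBO2 (chr3:75906695-77649964), on the same chromosome, fell from 1.57, 1.75 and 1.64 FPKM to 0.788, 1.13 and 0.883 FPKM (log2 fold change -0.89, SE 0.166, edgeR adjusted p = 0.000141), with a limma adjusted p of 0.102 on log2(FPKM + 1). It did not pass on log2(FPKM + 0.1) either. The FPKM ratio of SLIT3 to ROBO1, also chosen after the values were seen, was 7.18 ± 0.354 in si-SCR and 2.91 ± 0.197 in si-CyCoNP (SD, n = 3).

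**Figure D3:**
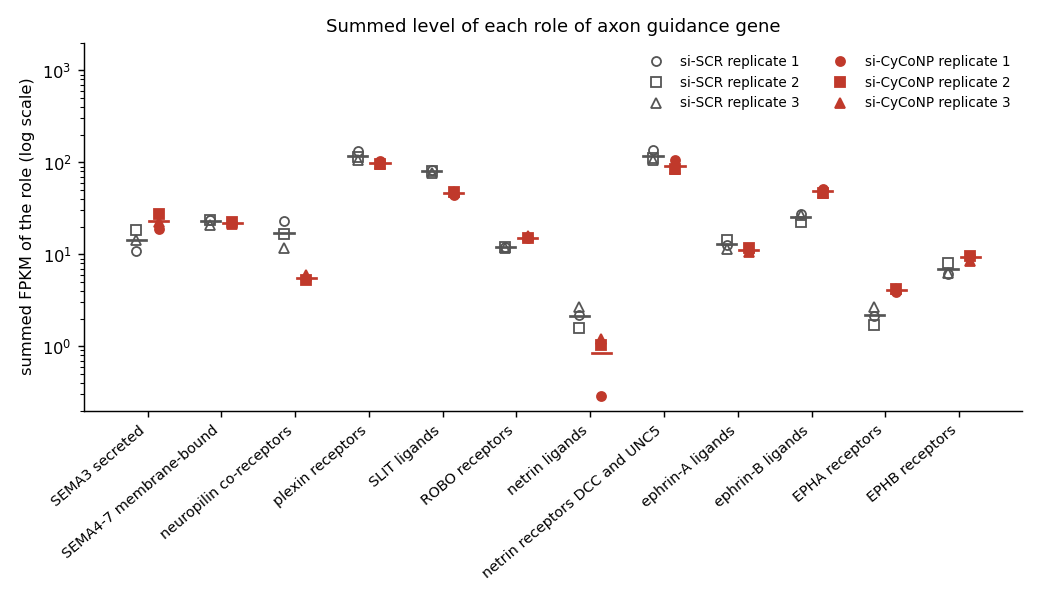
Summed FPKM (log axis) of all members of each ligand or receptor class in every library, with si-SCR as open and si-CyCoNP as filled points and a line at each group mean. The neuropilin sum drops from 17.1 to 5.55 FPKM and the SLIT sum from 80.0 to 46.3 FPKM on average, while the ephrin-B sum rises from 25.6 to 48.5 FPKM.

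Netrin ligands were nearly undetected. NTN1 and NTN5 had no count in any library, NTN4 had 3 counts in 1 si-SCR library and 1 count in 1 si-CyCoNP library, and only NTN3 was tested. NTN3 had 19, 13 and 28 counts in si-SCR against 3, 9 and 11 counts in si-CyCoNP, and was called lower (log2 fold change -1.45, SE 0.441, edgeR adjusted p = 0.0140). The call was lost without si-CyCoNP replicate 1 (-1.02, edgeR adjusted p = 0.0981) and on the log2 FPKM scales (limma adjusted p = 0.0835 and 0.102).

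Of the netrin receptors, DCC, which mediates attraction, had 1 count in all 6 libraries together, and UNC5D had none. The repulsive UNC5 receptors were expressed, and UNC5A and UNC5B fell. UNC5A (chr5:176810519-176880898) measured 7.93, 8.25 and 5.86 FPKM in si-SCR against 3.09, 3.43 and 3.30 FPKM in si-CyCoNP, with a clear gap between the groups (2.34-fold lower, log2 fold change -1.23, SE 0.17, edgeR adjusted p = 2.76e-06, and -0.95 in limma on log2(FPKM + 1), short of a call). UNC5B, a dependence receptor that can trigger cell death in the absence of netrin and the member with the highest level in both groups, measured 100.6, 73.2 and 74.3 FPKM in si-SCR against 74.5, 54.8 and 56.0 FPKM in si-CyCoNP. It was the only one of the 21 genes past the adjusted p whose groups overlapped, since si-CyCoNP replicate 1 reached the level of the lower si-SCR libraries (log2 fold change -0.49, SE 0.113, edgeR adjusted p = 0.00153). It did not pass with DESeq2 (adjusted p = 0.0974) or on either log2 FPKM scale, and leaving out si-SCR replicate 1 brought the log2 fold change to -0.31. UNC5C measured 28, 31.1 and 24.6 FPKM in si-SCR against 27.2, 27.4 and 25.3 FPKM in si-CyCoNP, with si-CyCoNP values inside the si-SCR range (log2 fold change -0.13, SE 0.089, edgeR adjusted p = 0.290), and it passed only without si-SCR replicate 3 (-0.24, edgeR adjusted p = 0.0180).

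EFNB2 (chr13:106489745-106535662, minus strand), a transmembrane ephrin that binds EPHB receptors and EPHA4 and marks arterial endothelium and many neurons, rose. It measured 15.8, 12.3 and 14.3 FPKM in si-SCR against 39.1, 33.9 and 32.0 FPKM in si-CyCoNP, and every si-CyCoNP value was far above every si-SCR value. The rise was 2.36-fold (log2 fold change 1.24, SE 0.103, edgeR adjusted p = 5.60e-10), and EFNB2 was called higher in all 14 alternative analyses (log2 fold change 1.15 to 1.34). EFNB1, another EPHB ligand, measured 7.47, 6.84 and 9.30 FPKM in si-SCR against 9.71, 9.48 and 13.2 FPKM in si-CyCoNP. These groups did not overlap, but the test was not passed (log2 fold change 0.38, SE 0.153, edgeR adjusted p = 0.0647), whereas it was passed with library totals alone (0.44) and when si-SCR replicate 3 (0.50) or si-CyCoNP replicate 2 (0.47) was left out. EFNB3 had a change of -0.50 on the log2 scale (edgeR adjusted p = 0.152). None of the ephrin-A ligands, which are anchored by a lipid and bind EPHA receptors, passed the test: EFNA5, the most abundant, had a change of -0.28 on the log2 scale (edgeR adjusted p = 0.0779, and -0.34 with a pass without si-SCR replicate 3), and EFNA2 and EFNA4 had -0.33 and -0.12. EFNA4 had only 4 to 10 counts per library, and 15.0% of its exon bases are shared with EFNA4-EFNA3. The summed ephrin-B level was 25.6 ± 2.65 FPKM in si-SCR against 48.5 ± 3.0 FPKM in si-CyCoNP (SD, n = 3), and the summed ephrin-A level was 12.8 ± 1.4 and 11.1 ± 0.670 FPKM. EFNB2 made up 55.2% of the ephrin-B sum in si-SCR and 72.2% in si-CyCoNP.

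EPH receptors, the largest family of receptor tyrosine kinases, were expressed at low levels. EPHA6 (chr3:96814581-97761532) had 19, 14 and 39 counts in si-SCR against 62, 69 and 62 counts in si-CyCoNP, or 0.703, 0.592 and 1.30 FPKM against 2.05, 2.58 and 2.38 FPKM. The groups did not overlap and the gene was called higher (2.52-fold, log2 fold change 1.33, SE 0.256, edgeR adjusted p = 0.000218), and 11% of its exon bases are shared with an overlapping gene. On log2(FPKM + 1) the change of EPHA6 was 0.86, short of a call, and without si-SCR replicate 3 it was 1.75. EPHB3, a receptor for EFNB2 and the most abundant EPH receptor, measured 3.85, 5.34 and 3.69 FPKM in si-SCR against 6.12, 5.92 and 5.11 FPKM in si-CyCoNP. Only si-SCR replicate 2 reached into the si-CyCoNP range (log2 fold change 0.36, SE 0.167, edgeR adjusted p = 0.114), and without that library EPHB3 passed (0.54, edgeR adjusted p = 0.0268). EPHB2, EPHB4 and EPHA2 had log2 fold changes of 0.15, 0.31 and 0.10, and none of them passed. The summed EPHA level was 2.17 ± 0.488 FPKM in si-SCR against 4.09 ± 0.148 FPKM in si-CyCoNP, and the summed EPHB level was 6.86 ± 1.10 and 9.25 ± 0.657 FPKM (SD, n = 3). EPHA6 made up 39.8% of the EPHA sum in si-SCR and 57.1% in si-CyCoNP.

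With edgeR's own default count filter in place of the FPKM minimum, 46 members were tested, and 6.35% of all genes were called (2.73% higher and 3.62% lower). Of the members that had not been tested before, 3 of low level were called, and SEMA3C, SEMA6C, SEMA7A and ROBO3 were not. The 3 called genes were singled out after their values were seen. EPHB1, a receptor for ephrin-B ligands, had 9, 9 and 13 counts under si-SCR and 25 counts in each si-CyCoNP library (log2 fold change 1.16, SE 0.330, edgeR adjusted p = 0.0108). EPHA5, a receptor for ephrin-A ligands, had 13, 8 and 8 counts under si-SCR and 24, 19 and 24 under si-CyCoNP (log2 fold change 1.09, SE 0.362, edgeR adjusted p = 0.0267). Both EPH receptors were thus higher without overlap. SEMA4F, a membrane-bound semaphorin, went from 16, 17 and 17 counts to 10, 6 and 7 (log2 fold change -1.22, SE 0.387, edgeR adjusted p = 0.0207). The other genes without a test in the main analysis had at most 27 counts in any library.

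**Figure D4:**
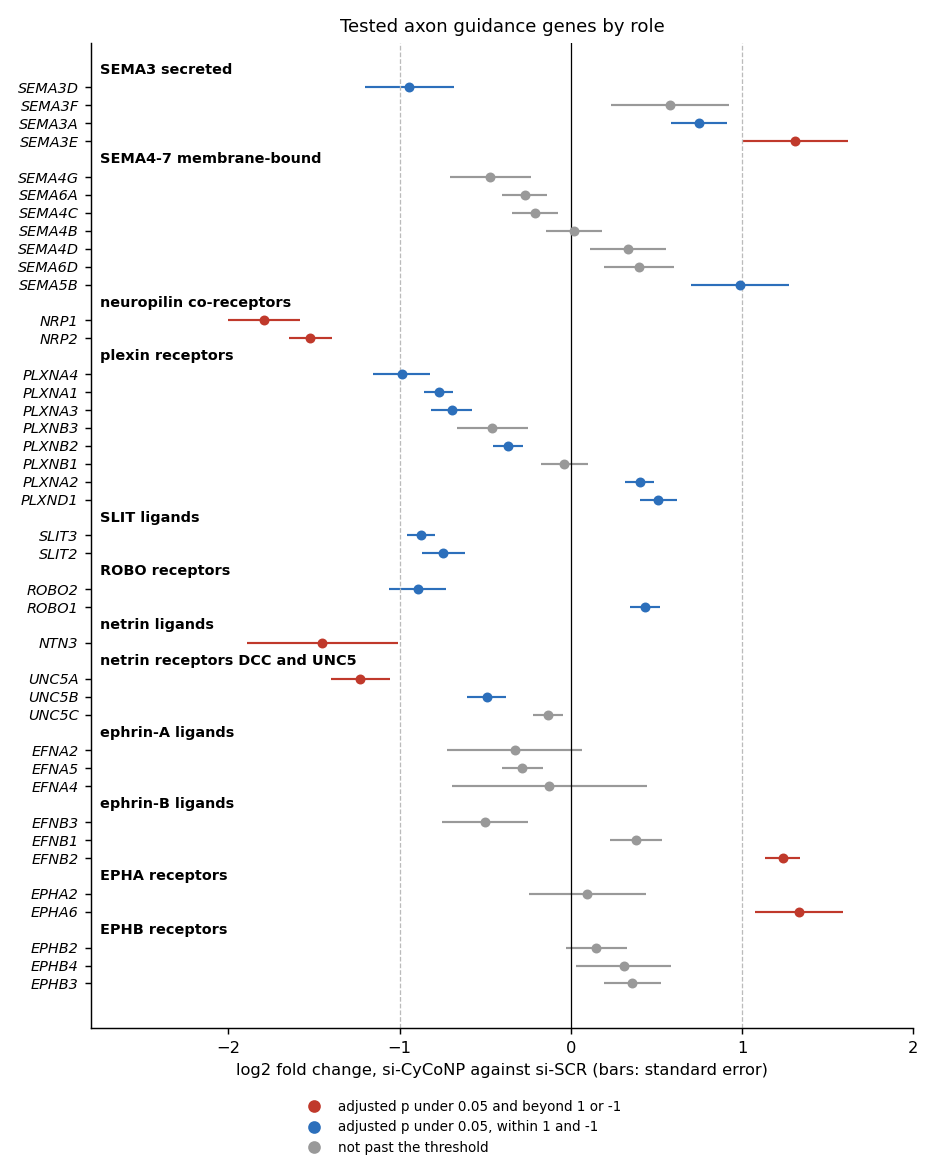
Log2 fold change (si-CyCoNP against si-SCR) of the 40 tested members, grouped by class, with bars of 1 standard error derived from the edgeR test and colours for genes called, past the adjusted p only, or not past it. NRP1 at -1.79 and NRP2 at -1.52 are the lowest points, and EPHA6 at 1.33, SEMA3E at 1.31 and EFNB2 at 1.24 are the highest.

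Genes that act beside or downstream of these receptors were read from a list of 71 co-receptors, related cues, GTPase regulators, kinases and cytoskeletal effectors. The 71 were chosen with earlier results of these data known, so the shares below only describe the list. Of the 52 that were tested, 26 passed an adjusted p of 0.05 (50.0%, against 28.4% of all genes), with 13 higher and 13 lower, and 2 were called (3.85%, against 5.26% of all genes). LINGO1, a partner of the Nogo receptor, was called higher, from 3.01 ± 0.887 to 8.67 ± 1.13 FPKM (SD, n = 3, log2 fold change 1.48, SE 0.176, edgeR adjusted p = 2.35e-07). RTN4R, the Nogo receptor itself, was called lower, from 2.63 ± 0.592 to 1.32 ± 0.228 FPKM (log2 fold change -1.03, SE 0.293, edgeR adjusted p = 0.00844). That call was lost without si-SCR replicate 2 (-0.84) or si-CyCoNP replicate 3 (-0.92), with library totals alone (-0.97), and on log2(FPKM + 1) (-0.64) and log2(FPKM + 0.1) (-0.93). LIMK1, the kinase that inactivates cofilin in growth cones, rose by 0.98 on the log2 scale (SE 0.088, edgeR adjusted p = 2.16e-09), and FLRT3, which binds UNC5 and ROBO receptors, rose by 0.69 (SE 0.20, edgeR adjusted p = 0.0107). DPYSL3, a member of the collapsin response mediator family that acts in semaphorin signalling, fell by 0.64 (SE 0.077, edgeR adjusted p = 2.95e-07).

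**Figure D5:**
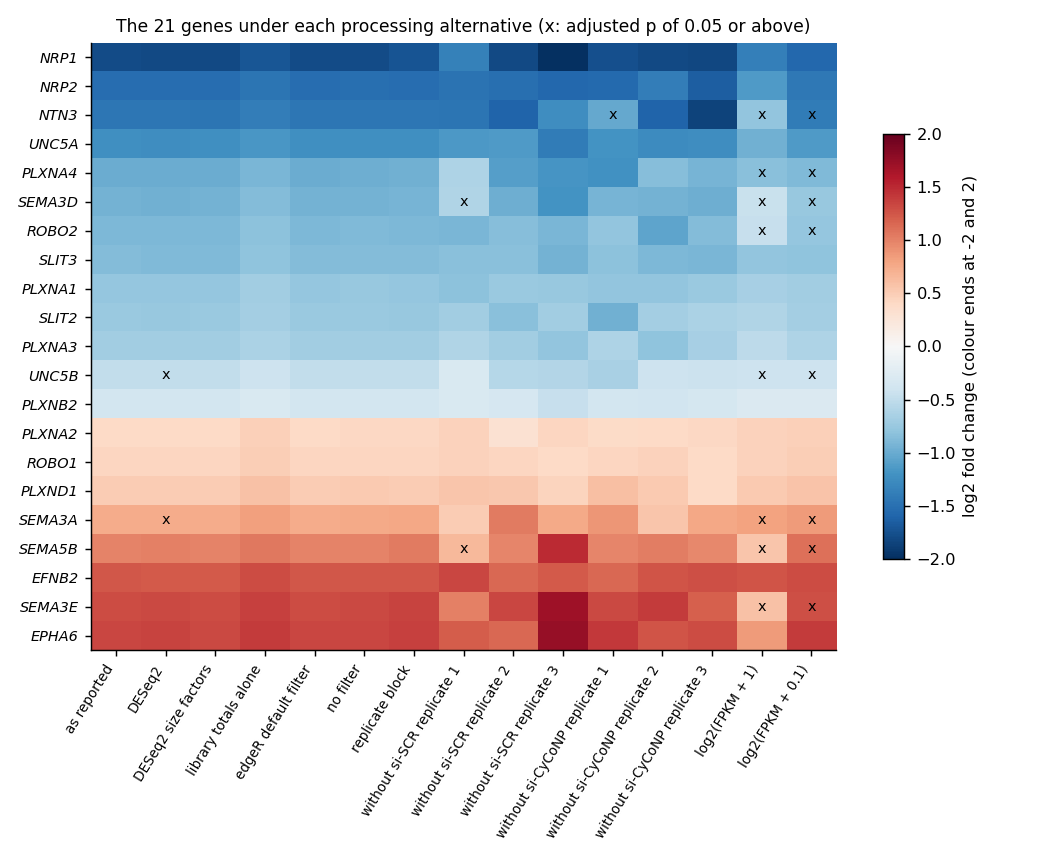
Log2 fold change of the 21 guidance genes past an adjusted p of 0.05 (rows) in the main analysis and the 14 alternatives (columns), with the colour scale ending at 2 and -2 and a cross where the adjusted p was 0.05 or above. NRP1, NRP2 and EFNB2 keep the size of change needed for a call in every column, and NRP1 without si-SCR replicate 3, at -2.12, lies past the end of the scale.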

How the data were processed

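Total RNA from 6 SK-N-BE samples (3 si-SCR, 3 si-CyCoNP, grouped by title) was sequenced by the authors as stranded, ribosome-depleted paired-end libraries. Per the methods and processing notes, reads were trimmed with Trimmomatic 0.39 and cutadapt 3.2, freed of ribosomal reads with Bowtie2 2.4.2 and aligned with STAR 2.7.7a to GRCh38. The authors deposited raw counts of uniquely mapping fragments per Ensembl gene, so genes that share sequence are undercounted. The FPKM values were also deposited by the authors, scaled to gene length and library total.

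Counts were tested here in edgeR 4.0.16 by its quasi-likelihood test (R 4.3.3, TMM) over 13966 genes with a mean of at least 1 FPKM in either group, with Benjamini-Hochberg adjustment over all of them. Error values beside means are SD over 3 libraries. SE values beside edgeR results were derived from the test, as the size of the log2 fold change divided by the square root of its F statistic. Members were matched by symbol and identifier to GENCODE, which also gave coordinates and 3′UTRs. The 14 alternatives were DESeq2 1.42.0, DESeq2 size factors, library totals alone, edgeR's default filter, no filter, a replicate block, leaving out each library, and limma 3.58.1 on log2(FPKM + 1) and log2(FPKM + 0.1). The script was tested on simulated data. Full values are given for members past an adjusted p of 0.05 and the 2 most abundant of each family; of the list of 71, for the 5 largest changes past that p. The members and gene lists were chosen with earlier results of these data known. No removal of PCR duplicates is stated, so floors describe counting error only. Batches were not given in the labels. From the Schwann and glial marker list, 1 item is not reported here, so the printed sum leaves it out.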

Additional observations from a re-analysis of the deposited data

How the results depend on the processing

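LINC02381, the 21 members past the adjusted p and the 5 named genes of the list of 71 kept their direction under the 14 alternatives. Of the members that did not pass, 4 with changes near 0 did not: PLXNB1 turned to 0.031 with library totals alone, 0.012 on log2(FPKM + 1) and 0.014 on log2(FPKM + 0.1), EFNA4 turned to 0.0094 on log2(FPKM + 0.1), and with 1 library left out PLXNB1 ran from -0.18 to 0.035, EFNA4 from -0.49 to 0.32, EPHA2 from -0.027 to 0.18 and SEMA4B from -0.11 to 0.17. With the minimum mean of 1 FPKM, 30 of the 70 genes stayed below the level tested. The members called, 3 higher and 4 lower, became 5 higher with edgeR's default filter and 5 higher with no filter, and 1 higher and 2 lower on log2(FPKM + 1). SEMA4F was also called lower with the default filter (-1.22) and with no filter (-1.22). Leaving out 1 library gave 3 to 4 higher and 4 to 6 lower. Those added were PLXNA4 without si-SCR replicate 2 (-1.09), si-SCR replicate 3 (-1.19) or si-CyCoNP replicate 1 (-1.21), SEMA3D (-1.19) and SEMA5B (1.50) without si-SCR replicate 3, SEMA3A without si-SCR replicate 2 (1.03), and ROBO2 (-1.05) and SEMA5B (1.03) without si-CyCoNP replicate 2, and NTN3 was lost without si-CyCoNP replicate 1 (-1.02). Members past an adjusted p of 0.05, 8 higher and 13 lower, became 5 and 8 on both log2 FPKM scales, and 7 to 10 and 12 to 17 with 1 library left out. The median log2 fold change of -0.17 became -0.10 with library totals alone, -0.084 with no filter, -0.089 on log2(FPKM + 1) and -0.10 on log2(FPKM + 0.1), and ran from -0.31 to -0.066 with 1 library left out.

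In the list of 71, the 1 gene called higher became 2 with library totals alone and 2 on log2(FPKM + 0.1). The 1 called lower became 0 with library totals alone and on both log2 FPKM scales, 2 with the default filter and 3 with no filter, and leaving out 1 library gave 1 to 2 higher and 0 to 1 lower. Genes past the adjusted p as lower, 13, became 6 on log2(FPKM + 1) and 7 on log2(FPKM + 0.1), and 9 to 13 with 1 library left out. The cause of these shifts was not tested.

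Same-numbered libraries deviated together with correlations of 0.0907, 0.0727 and 0.108, not all above 0.1, so the numbers were not taken as pairs, although each library correlated best with its own number, which is a hint from the data and not the design. With the replicate number as a block, 4 members were called higher and 4 lower, and 9 and 14 passed the adjusted p, with EFNB1 (edgeR adjusted p = 0.0136) and EFNA5 (0.0387) added.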
